A study of Saccharomyces cerevisiae with 12 samples.

Results

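The comparison described here is that of a budding yeast strain with the allele VPS13-D716H and a deletion of SAM37 (VPS13-D716H sam37Δ) against a strain with the deletion alone (sam37Δ). It uses 2 of the 12 libraries of the series, 1 on each side, so none of its ratios has a replicate check and none carries a p. Of 6660 genes in the deposited table, 6189 had a mean FPKM (a fragment density per kilobase of gene, normalised to library size) of at least 5 over both libraries and were compared. All strains were Saccharomyces cerevisiae of the BY4741 background, a MATa laboratory strain, grown in YPD, a rich glucose medium, to an OD600 of 0.8 to 1. The same table holds wild type (WT, replicate 2), VPS13-D716H in an otherwise WT strain, mmm1Δ (replicate 2) and VPS13-D716H mmm1Δ, 1 library each, which give the allele's ratio in 2 other backgrounds without sharing a library with the sam37Δ pair. The seventh library, AFT1-C291F, enters only the check of SAM37. The labels name no clone or promoter for any strain, and nothing says how many strains or cultures stand behind a library.

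Vps13 is a large lipid transfer protein found where organelles touch, among them the contacts of mitochondria with the vacuole and the endoplasmic reticulum (ER). Its D716H change is known as a dominant allele that restores growth to yeast lacking the ER-mitochondria encounter structure (ERMES), a tether built of Mmm1, Mdm10, Mdm12 and Mdm34. Sam37 is a subunit of the sorting and assembly machinery (SAM) of the mitochondrial outer membrane, which inserts beta-barrel proteins, Mdm10 of ERMES among them. Budding yeast reads its iron supply through iron-sulfur clusters made in mitochondria: when these are scarce, the activators Aft1 and Aft2 turn on genes of iron uptake, the iron regulon. The series asks how ER-mitochondria contacts bear on iron homeostasis.

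The residue changed in D716H is encoded in the reference gene VPS13 (YLL040C, chromosome XII, 54211 to 63645, minus strand, build R64). The stretch is shown because it holds the changed codon: 63 bases of reference coding sequence, chrXII:61468-61530, read on the minus strand, with the codon of that residue, GAT for aspartate (D), in capitals.
VPS13: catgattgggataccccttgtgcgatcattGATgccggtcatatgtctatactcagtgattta
The allele itself cannot be read from expression values. Throughout, the 2 values of a pair are given first without and then with the allele. VPS13 was at 4.07 and 4.05 FPKM in the sam37Δ pair and at 4.92 and 5.32 in the WT pair. SAM37 was listed at 0 in both libraries of the pair and lay between 30.4 and 57.9 FPKM in the 5 other libraries of the table. The 2 libraries also looked alike as wholes: median FPKM was 43.0 and 43.1, and ribosomal protein genes held 28.1% and 27.3% of the length-weighted FPKM, against 49.4% in WT. LEU2 was at 0 and 0.23 FPKM, URA3 at 0 in both and MET17 at 0.17 and 0.18, genes that BY4741 lacks. HIS3, of which BY4741 keeps a part and which shares its locus with another gene, was at 195 and 227 FPKM. The a-type pheromone receptor gene STE2 was at 461 and 491 FPKM, and the alpha-factor gene MF(ALPHA)1 at 4.69 and 4.83. FPKM is relative to each library's total, so a change in a gene's own level and a change in the rest of the library cannot be told apart.

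The VPS13-D716H sam37Δ library was close to the sam37Δ library across the transcriptome. The median log2 ratio of (FPKM + 1) was 0.00, and 95.2% of the genes lay within 1.5-fold. At least 2-fold higher were 73 genes (1.18% of those tested) and at least 2-fold lower were 63 (1.02%). The same allele gave 136 genes higher (2.21%) and 129 lower (2.09%) over WT, and 589 higher (9.43%) and 751 lower (12%) over mmm1Δ. Pearson's r of the log2 levels over genes, a description of each pair of libraries, was 0.97 for the sam37Δ pair, 0.96 for the WT pair and 0.89 for the mmm1Δ pair.

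**Figure D1:**
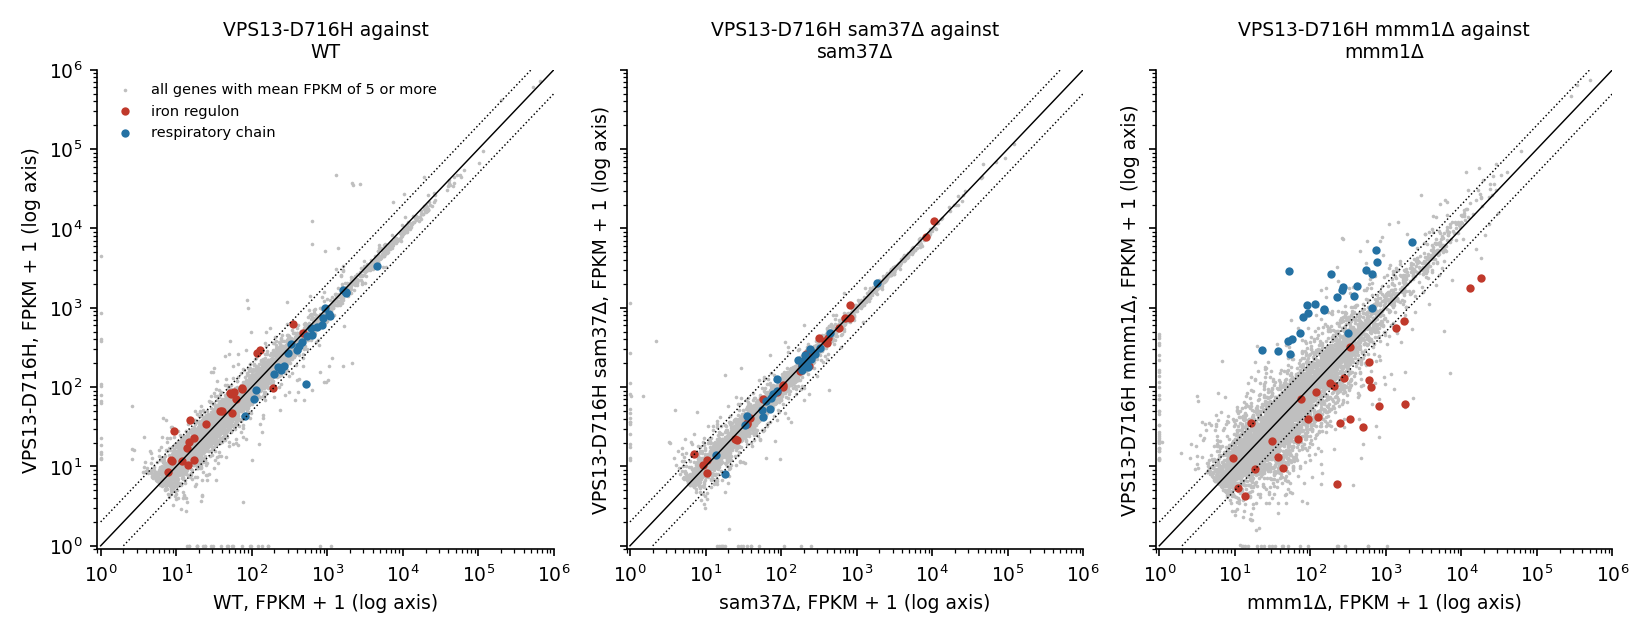
FPKM + 1 of every gene with a mean FPKM of 5 or more, without the allele (x) and with it (y), in WT, sam37Δ and mmm1Δ; both axes are log axes, the solid line marks equal levels and the dotted lines 2-fold. In the sam37Δ pair the iron regulon (red) and the respiratory chain (blue) lie along the line of equal levels, and in the mmm1Δ pair they lie on opposite sides of it.

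Most genes past 2-fold in the sam37Δ pair were short or shared their locus. Of the 73 genes that were higher, 64 were under 300 nt or listed at the same locus as another gene, and 13 were listed at 0 in the sam37Δ library. Of the 63 that were lower, 52 were short or at a shared locus, and 16 were listed at 0 in the VPS13-D716H sam37Δ library. Values of such genes need caution. FPKM divides by gene length, which is very small for many of them, and how reads were divided between genes at a shared locus is unknown. The part of either in these ratios was not tested. The share past 2-fold was 8.07% at a mean FPKM of 5 to 10 and 0.34% at 1000 or more, where YMR272W-A, a 114 nt gene at a shared locus, was the single case. Among the 4790 genes that were 300 nt or longer and had a locus to themselves, called long unshared genes below, 9 were higher and 11 lower. With a mean FPKM of at least 20 as well, 2 of 3710 were higher and 2 lower, and 99.6% lay within 1.5-fold. By the same limits, 31 genes were higher and 24 lower of 3561 in the WT pair, and 315 higher and 424 lower of 3659 in the mmm1Δ pair.

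**Figure D2:**
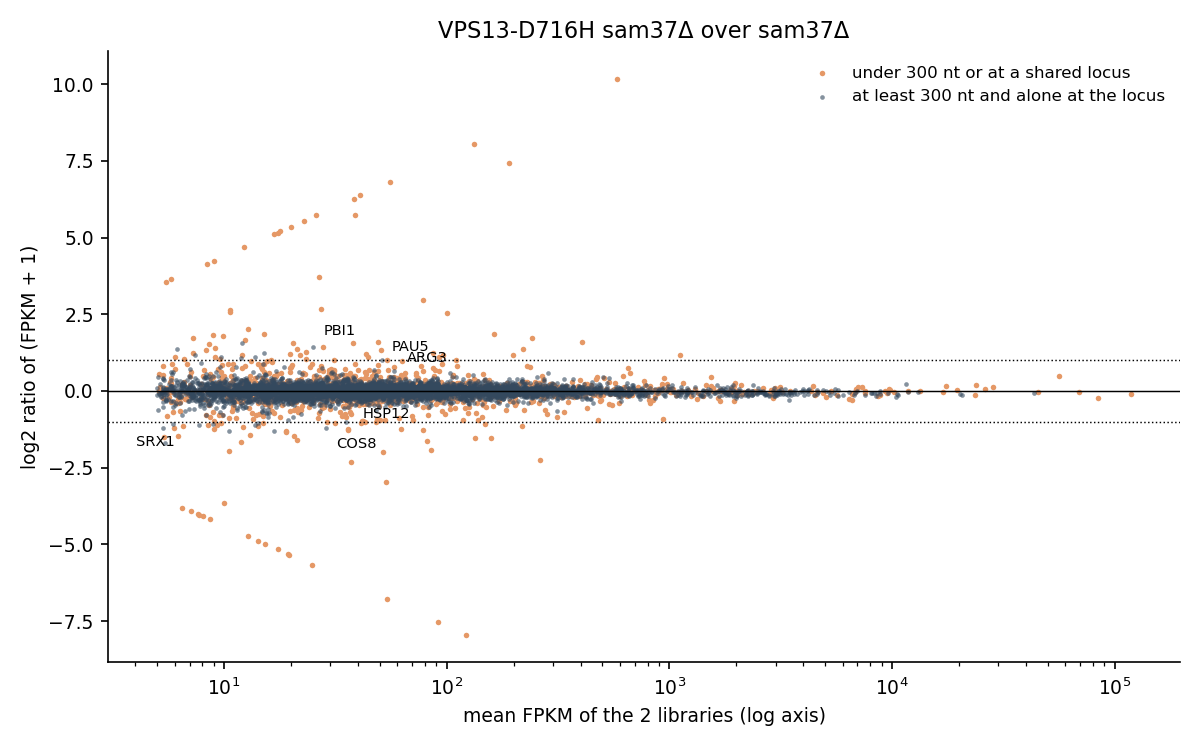
Log2 ratio of (FPKM + 1), VPS13-D716H sam37Δ over sam37Δ, against the mean FPKM of both libraries (log axis), with dotted lines at 2-fold. The ratios farthest from 0 belong to genes under 300 nt or at a shared locus (orange), and the long unshared genes (dark) stay near 0.

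The iron regulon was as high in VPS13-D716H sam37Δ as in sam37Δ. Over its 30 genes the median log2 ratio was -0.02, with 11 genes above 0, 29 within 1.5-fold, 1 past 2-fold higher and none lower. Of all 6189 genes tested, 95.2% lay within 1.5-fold, 1.18% were past 2-fold higher and 1.02% lower. Against WT the sam37Δ library had a median log2 ratio of 1.61 over these genes, with 22 at least 2-fold higher and none lower, where 6.32% of 6198 genes were higher and 10.7% lower. In VPS13-D716H sam37Δ over VPS13-D716H the median was 1.40, with 21 genes higher and none lower, beside 6.31% higher and 9.45% lower of 6213 genes. In VPS13-D716H mmm1Δ over mmm1Δ the median was -1.52, with 21 genes lower and 1 higher, beside 12% lower and 9.43% higher of 6245 genes.

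Promoter stretches of a pair of cell wall mannoprotein genes of this regulon are shown because both have among the highest iron-regulon levels in the sam37Δ libraries and carry repeated Aft1 core motifs. They are reference sequence (R64), 5′ to 3′ toward the gene, with the letters GCACCC or their reverse complement in capitals.
FIT3 (chrXV:1061220-1061339, minus strand): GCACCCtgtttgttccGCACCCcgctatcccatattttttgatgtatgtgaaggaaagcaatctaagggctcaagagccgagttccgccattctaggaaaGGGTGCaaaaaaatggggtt
FIT2 (chrXV:1059200-1059319, plus strand): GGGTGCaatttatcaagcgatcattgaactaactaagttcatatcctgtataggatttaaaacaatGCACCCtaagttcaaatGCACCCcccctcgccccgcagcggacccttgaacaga
In a window from 600 to 101 bases before the start codon, GCACCC on either strand was found in 24 of the 30 iron regulon genes (80%) and in 503 of all 5982 windows read (8.41%). A match describes the letters and not a bound site.

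Among the mannoproteins that retain siderophores at the cell wall, FIT3 was at 10669 and 12484 FPKM in the sam37Δ pair, 52.5 and 81.7 in the WT pair and 18121 and 2405 in the mmm1Δ pair. FIT2 was at 8201 and 7882, 74.1 and 96.9, and 13131 and 1760 FPKM in the same order. FIT1 was at 214 and 259, 2.85 and 2.49, and 228 and 5.07 FPKM. For all 3 genes both sam37Δ libraries stood far above WT and VPS13-D716H and near each other, while the 2 mmm1Δ libraries stood apart.

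The siderophore transporters gave the same picture. ARN1 was at 245 and 241 FPKM in the sam37Δ pair and at 23.8 in WT, and at 499 and 30.7 in the mmm1Δ pair. ARN2 was at 591 in sam37Δ and 558 with the allele, SIT1 (ARN3) at 201 and 183, and ENB1 (ARN4) at 384 and 375. High-affinity uptake of ionic iron uses the multicopper oxidase Fet3 and the permease Ftr1. FET3 was at 814 and 733 FPKM in the sam37Δ pair and at 118 and 268 in the WT pair, and FTR1 at 408 and 358 and at 127 and 292. The allele's log2 ratio was thus 1.18 for FET3 and 1.20 for FTR1 over WT, and -0.15 and -0.19 over sam37Δ. FRE1, a metalloreductase gene, had a log2 ratio of 1.36 over WT (14.1 to 37.8 FPKM) and 0.07 over sam37Δ (38.2 to 40.2). These genes were not typical: over WT the allele gave the 30 iron regulon genes a median of 0.35, with 7 below 0. Only 4 of the 30 were at least 2-fold higher and none lower, beside 2.21% higher and 2.09% lower of 6160 genes.

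Within the regulon the lowest ratios over sam37Δ were those of FRE2, a metalloreductase gene (9.58 and 7.24 FPKM, log2 ratio -0.36), and TIS11, which encodes Cth2, an mRNA-binding protein that spares iron (232 and 186 FPKM, -0.32). The highest belonged to BNA2, of NAD synthesis (5.95 and 13.2 FPKM, 1.03), and to LSO1, a short gene of 282 nt (807 and 1088 FPKM, 0.43). BNA2 is a low gene at a locus shared with another gene. In the WT pair LSO1 was at 1.47 and 2.05 FPKM. ISU1, the scaffold on which iron-sulfur clusters are built, was at 702 and 740 FPKM, and MRS4, a mitochondrial iron carrier, at 87.1 and 86.7. AFT1 itself was at 28.5 and 32.5 FPKM, against 16.2 in VPS13-D716H and 10.03 in WT.

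**Figure D3:**
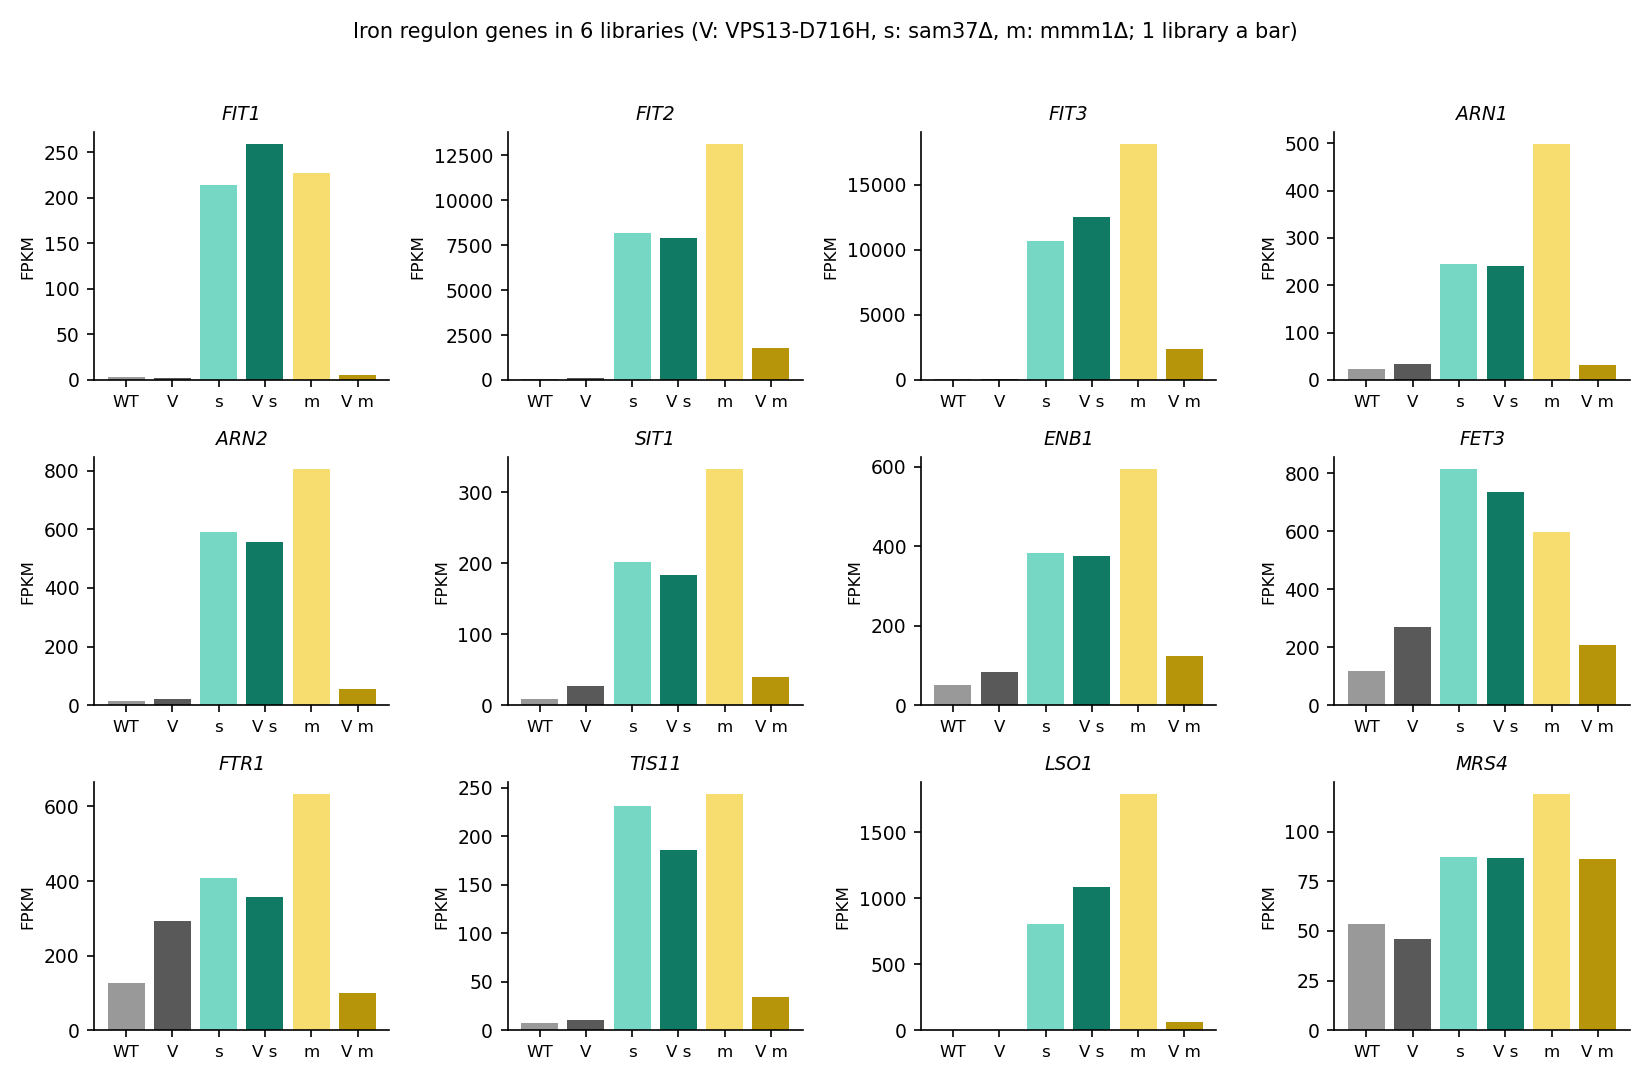
FPKM of 12 iron regulon genes in 6 libraries, 1 library a bar, with axes from 0 that differ between panels (V, VPS13-D716H; s, sam37Δ; m, mmm1Δ). The bars of sam37Δ and VPS13-D716H sam37Δ differ by less than 1.5-fold in every panel, for example 245 and 241 for ARN1, where mmm1Δ and VPS13-D716H mmm1Δ are at 499 and 30.7.

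Genes of the mitochondrial respiratory chain, which uses heme and iron-sulfur clusters, were low in both libraries. Their 26 genes had a median log2 ratio of -0.01 over sam37Δ, with 13 above 0, 1 lower and none higher past 2-fold. Of all 6189 genes tested, 1.02% were past 2-fold lower and 1.18% higher. Against WT, sam37Δ had a median of -1.92 with 23 genes lower, beside 10.7% of all genes. VPS13-D716H sam37Δ over VPS13-D716H had -1.69 with 21 lower, beside 9.45%. In the mmm1Δ pair the median was 2.71 with 24 genes higher, beside 9.43%. SDH2, the iron-sulfur subunit of succinate dehydrogenase, was at 55.6 and 50.9 FPKM in the sam37Δ pair, 268 and 184 in the WT pair and 92.0 and 855 in the mmm1Δ pair. COX4, a cytochrome c oxidase subunit, was at 70.1 and 52.6, 605 and 551, and 113 and 1112 FPKM in the same order. The Rieske iron-sulfur protein gene RIP1 was at 56.5 and 41.3 FPKM in the sam37Δ pair and at 298 in WT. CYC1, cytochrome c, was at 76.4 and 80.3 FPKM in the sam37Δ pair and at 426 in WT. In both members of the pair these genes stayed well under their WT level.

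The members farthest from 0 were COX26 (201 nt), at 17.3 and 7.13 FPKM with a log2 ratio of -1.17, and QCR10 (297 nt), a subunit of the cytochrome bc1 complex, at 87.0 and 126 with 0.53. Of all genes tested in the sam37Δ pair, 95.2% lay within 1.5-fold. The 16 nuclear genes of ATP synthase had a median of -0.08 over sam37Δ, with all 16 within 1.5-fold, and 1.33 in the mmm1Δ pair. Of 17 genes of the tricarboxylic acid cycle, all lay within 1.5-fold, with a median of -0.02. Among 26 iron-sulfur and heme enzymes the median was 0.04 and 25 lay within 1.5-fold. BIO2, the iron-sulfur enzyme biotin synthase, was at 41.7 and 41.6 FPKM in the sam37Δ pair and at 109 in WT. CYC7, the hypoxic form of cytochrome c, was the exception at 24.1 and 37.2 FPKM, a log2 ratio of 0.61, against 128 in WT and 33.5 in VPS13-D716H.

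The genes for the contact sites and the outer membrane machinery were near equal, as were most genes tested. Of 19 tested genes for ERMES, Vps13 and related contacts, 18 lay within 1.5-fold, beside 95.2% of all genes tested. Their median was -0.01. Of the ERMES subunits, MMM1 was at 28.3 and 20.8 FPKM, MDM34 at 62.4 and 72.6, MDM10 at 23.5 and 24.3, and MDM12 at 41.0 and 45.5. MDM34 was at 35.7 in WT and 34.3 in VPS13-D716H. MCP1, which encodes a mitochondrial membrane protein that recruits Vps13, was at 26.4 and 22.9 FPKM. The highest ratio was that of YBR063C, at 15.4 and 24.4 FPKM (0.63), and the lowest that of MMM1 (-0.43). SAM50, the beta-barrel core of the SAM complex, was at 61.3 and 55.0 FPKM, and SAM35, its other peripheral subunit, at 101 in both. POR1, the porin and an abundant SAM substrate, was at 1277 and 1240. All 28 genes of protein import through TOM and TIM lay within 1.5-fold, from -0.39 for TIM22 (110 and 83.7 FPKM) to 0.50 for TIM8 (223 and 316).

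Drug resistance genes under Pdr1 and Pdr3, which are known to respond to mitochondrial dysfunction, were likewise high in both. In sam37Δ over WT their median was 1.11, with 11 genes at least 2-fold higher and none lower, beside 6.32% and 10.7% of all genes. Over 17 genes the median log2 ratio in the sam37Δ pair was -0.06, with all 17 within 1.5-fold, beside 95.2% of all genes tested. PDR5, the main drug efflux pump, was at 1053 and 1021 FPKM in the sam37Δ pair, 132 and 211 in the WT pair and 978 and 107 in the mmm1Δ pair. RTA1 had the lowest ratio (15.1 and 11.2 FPKM, -0.40) and TPO1, a polyamine exporter gene, the highest (30.4 and 41.2 FPKM, 0.43). The 8 retrograde targets, which Rtg1 and Rtg3 switch on when mitochondria fail, had a median of 0.06 over sam37Δ and -1.07 in the mmm1Δ pair. They were not high as a list: in sam37Δ over WT their median was 0.09, with 1 gene at least 2-fold higher and none lower. CIT2, the peroxisomal citrate synthase and the standard reporter of that pathway, was at 80.7 and 78.7 FPKM in the sam37Δ pair and at 279 and 91.3 in the mmm1Δ pair.

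**Figure D4:**
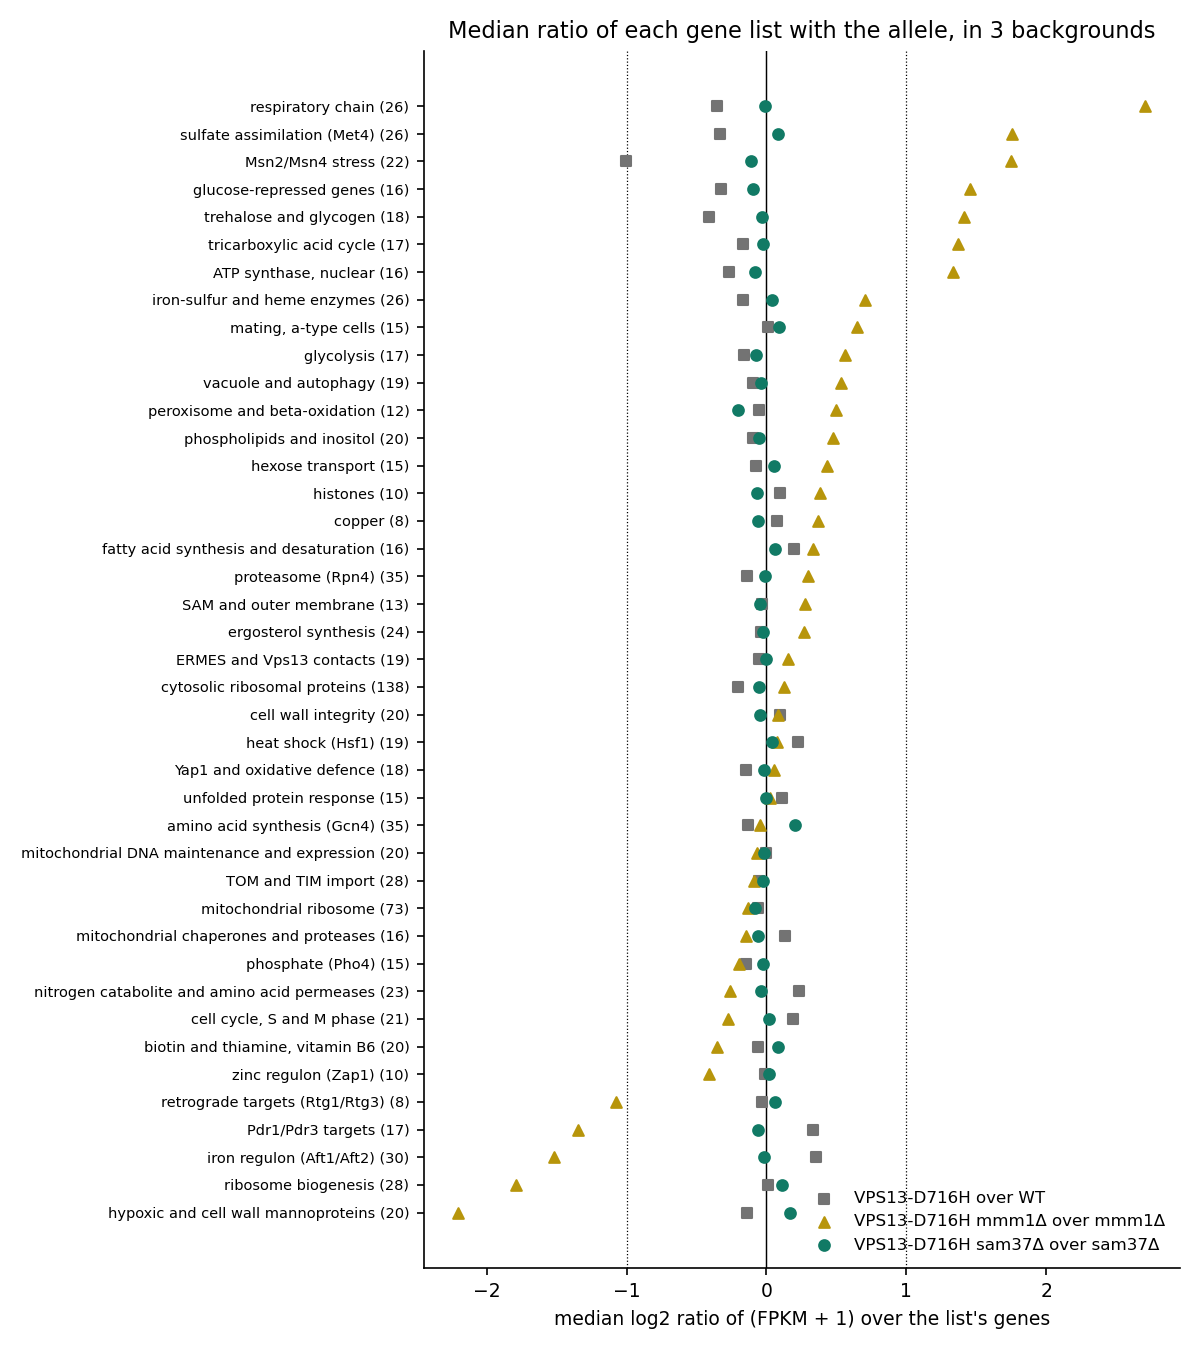
Median log2 ratio of (FPKM + 1) over the genes of each list (number of genes in parentheses), with the allele over without it, in WT (grey squares), mmm1Δ (triangles) and sam37Δ (circles); dotted lines mark 2-fold. The sam37Δ medians drawn lie between -0.20 and 0.20, while those of the mmm1Δ pair reach -2.20 for the hypoxic and cell wall list and 2.71 for the respiratory chain.

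Of 44 lists with a tested gene, 37 had no member past 2-fold in the sam37Δ pair and 37 had a median within 0.1 of 0. Of their 936 distinct genes, 8 were past 2-fold, beside 2.20% of all 6189 genes tested and 0.42% of the 4790 long unshared genes. In the mmm1Δ pair 12 lists had a median of at least 2-fold, and in the WT pair 1 did. That list was the Msn2/Msn4 stress list, with a median of -1.005 over WT, -0.11 over sam37Δ and 1.74 over mmm1Δ. GPH1, glycogen phosphorylase, was at 12.1 and 9.99 FPKM in the sam37Δ pair and at 101 and 10.9 in the WT pair. HXK1, a hexokinase, was at 70.4 and 58.1 FPKM and at 629 and 90.7. For both, the 3 mutant libraries lay together far under WT. The list as a whole did not: its 22 genes had a median of -0.01 in sam37Δ over WT, with 11 above 0. Of these 22 genes, 2 were at least 2-fold higher and 6 lower, beside 6.32% and 10.7% of all genes.

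Some lists had most of their ratios on one side of 0 with small medians, among them amino acid synthesis and ribosome biogenesis above 0 and stress genes below it. Of 17 glycolysis genes 14 were below 0 (median -0.08), as were 13 of the 16 ATP synthase genes and 8 of 10 histone genes (median -0.07). Of 35 amino acid synthesis genes under Gcn4, 32 had a ratio above 0, beside 50.3% of all genes tested, and their median was 0.20; none was past 2-fold. Arginine genes were at the top. ARG3, ornithine carbamoyltransferase, was at 44.7 and 71.4 FPKM in the sam37Δ pair, 2.43 and 4.87 in the WT pair and 27.0 and 3.83 in the mmm1Δ pair. ARG1, argininosuccinate synthetase, was at 459 and 616, 45.6 and 34.0, and 304 and 79.4 FPKM in the same order. Both sam37Δ libraries stood above WT, and the one with the allele was the highest of the 6 for either gene. ARG5,6 was at 35.2 and 51.6 FPKM (0.54). The lowest member was SER33, of serine synthesis, at 81.8 and 69.2 (-0.24). SNZ1, of vitamin B6 synthesis, was at 228 and 344 FPKM in the sam37Δ pair and at 20.2 in WT (0.59).

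Reference promoter stretches of ARG1 and ARG3, a pair of arginine genes named above, are shown for their Gcn4 core motif, TGACTC on either strand in capitals.
ARG1 (chrXV:218866-218985, plus strand): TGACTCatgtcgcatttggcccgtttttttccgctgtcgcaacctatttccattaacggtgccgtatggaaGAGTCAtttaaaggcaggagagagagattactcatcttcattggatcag
ARG3 (chrX:268475-268594, plus strand): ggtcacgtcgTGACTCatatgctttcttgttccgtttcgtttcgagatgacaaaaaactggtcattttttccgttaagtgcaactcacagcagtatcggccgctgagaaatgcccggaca
The motif was found in the window of 27 of the 35 genes (77.1%) and of 807 of all 5982 (13.5%).

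Of 28 ribosome biogenesis genes, 25 had a ratio above 0 and all lay within 1.5-fold, beside 95.2% of all genes tested. Their median was 0.11 over sam37Δ and -1.79 over mmm1Δ. UTP10, of the small subunit processome, was at 30.2 and 38.0 FPKM (0.32), NOP58, a small nucleolar RNA-binding protein gene, at 227 and 259, and RPC31, an RNA polymerase III subunit gene, at 211 and 197 (-0.10), the lowest. For 138 cytosolic ribosomal protein genes the median was -0.06; 31 were above 0 and 137 lay within 1.5-fold. They were at a median of -1.70 in sam37Δ over WT. Of 22 stress genes 5 were above 0. HSP12, a membrane-stabilising heat shock protein, was at 47.9 and 23.1 FPKM in the sam37Δ pair, 44.5 and 27.0 in the WT pair and 349 and 1011 in the mmm1Δ pair, a log2 ratio of -1.02 over sam37Δ. GRE1, a hydrophilin gene, was at 19.5 and 11.4 FPKM (-0.73). Over long unshared genes the log2 ratio had a Spearman correlation of 0.15 with gene length, and the part of length in these shifts was not tested.

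The promoter stretch of HSP12 is shown for its stress response element, AGGGG on either strand in capitals, found in 21 of the 22 stress genes (95.5%) and in 35.2% of all windows.
HSP12 (chrVI:106821-106940, plus strand): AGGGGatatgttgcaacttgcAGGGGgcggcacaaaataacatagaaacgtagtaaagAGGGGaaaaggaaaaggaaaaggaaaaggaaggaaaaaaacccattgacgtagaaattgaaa

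Hypoxic and cell wall mannoprotein genes had the widest ratios of the lists. Of 20 tested, 14 were above 0 and the median was 0.17. Within 1.5-fold lay 14 of them, beside 95.2% of all genes tested. Over WT, sam37Δ had a median of 1.21, and over mmm1Δ the allele had -2.20. The mannoprotein gene DAN1 was at 116 and 125 FPKM in the sam37Δ pair, 1.78 and 0.50 in the WT pair and 809 and 22.7 in the mmm1Δ pair. TIR4 was at 131 and 127 in the sam37Δ pair and at 493 and 17.9 in the mmm1Δ pair. PAU5, a seripauperin, was at 33.4 and 68.7 FPKM in the sam37Δ pair, a log2 ratio of 1.02, 7.46 and 4.17 in the WT pair and 471 and 11.8 in the mmm1Δ pair. PAU8 was at 7.41 and 16.5 in the sam37Δ pair (1.06), and PAU7 was the lowest member, at 92.9 and 47.8 (-0.94).

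The seripauperin family was looked at as a whole after these values were seen. Of 18 members tested, 15 were above 0 and 4 were past 2-fold higher (PAU5, PAU8, PAU1 and PAU14), with a median of 0.59, and none was past 2-fold lower. Of all genes tested 50.3% were above 0 and 1.18% past 2-fold higher. In the mmm1Δ pair 16 of the 18 were at least 2-fold lower, beside 12% of all genes. PAU genes are near-identical copies, so reads can be split between them, and most lay under 40 FPKM in both libraries.

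Among 3382 long unshared genes with a gene name and a mean FPKM of 20 or more, 11 were past 1.5-fold, 7 higher and 4 lower, and 4 were past 2-fold. PBI1, on chromosome XVI (26611 to 28164), was at 13.1 and 36.9 FPKM in the sam37Δ pair (1.43), 4.20 and 4.59 in the WT pair and 138 and 5.05 in the mmm1Δ pair. It was the highest of the group, followed by PAU5. COS8, one of a family of similar subtelomeric membrane proteins, was the lowest, at 40.2 and 17.0 FPKM (-1.20), against 75.4 in WT, and HSP12 came next. The 10 other COS genes tested lay between -0.30 and 0.27.

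The next genes on the high side were PAU2 (20.4 and 35.0 FPKM), ARG3, FRM2 (16.9 and 26.5), CYC7, SNZ1 and PHO89, a sodium-phosphate cotransporter gene (82.3 and 124). PAU6, BLS1, TEA1, MGT1, PDP3, SIS2 and CNS1 completed the 15 highest, down to a log2 ratio of 0.47. On the low side they were HUA2 (26.5 and 14.4 FPKM), ADH7, an alcohol dehydrogenase gene (28.1 and 16.4), and GPX1 and TSA2, a glutathione peroxidase and a peroxiredoxin gene (37.4 and 25.3; 58.3 and 40.6). SCS22, SPP2, MCM16, RTT105, YCH1, CDD1, SCM3, YNG1 and SAL1 completed the 15 lowest, down to -0.47. These genes were chosen for their ratios, and with 1 library a side the spread between cultures is unknown. The ratio of SRX1, which encodes the sulfiredoxin that repairs peroxiredoxins, was -1.12 at 10.9 and 4.50 FPKM, a low level. MF(ALPHA)2, an alpha-factor gene that a-type cells keep low, was at 15.4 and 5.72 FPKM (-1.29).

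The profile of Sam37 loss was much alike with and without the allele. This was compared between sam37Δ over WT and VPS13-D716H sam37Δ over VPS13-D716H, which share no library. Over 3667 long unshared genes whose FPKM averaged 20 or more in the 4 libraries, Pearson's r across genes was 0.87 and Spearman's rho 0.83; genes are not independent replicates and no p is given. Over all 6222 genes whose FPKM averaged 5 or more the values were 0.66 and 0.77. There 228 genes were past 2-fold higher in both, 57.4% of those higher without the allele and 57.6% of those higher with it. Past 2-fold lower in both were 442 genes, 66.1% and 75.6% of the respective lists. For loss of Mmm1, compared in the same way over 3658 genes, Pearson's r was 0.29 and Spearman's rho 0.37, and over all 6262 genes they were 0.16 and 0.30.

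**Figure D5:**
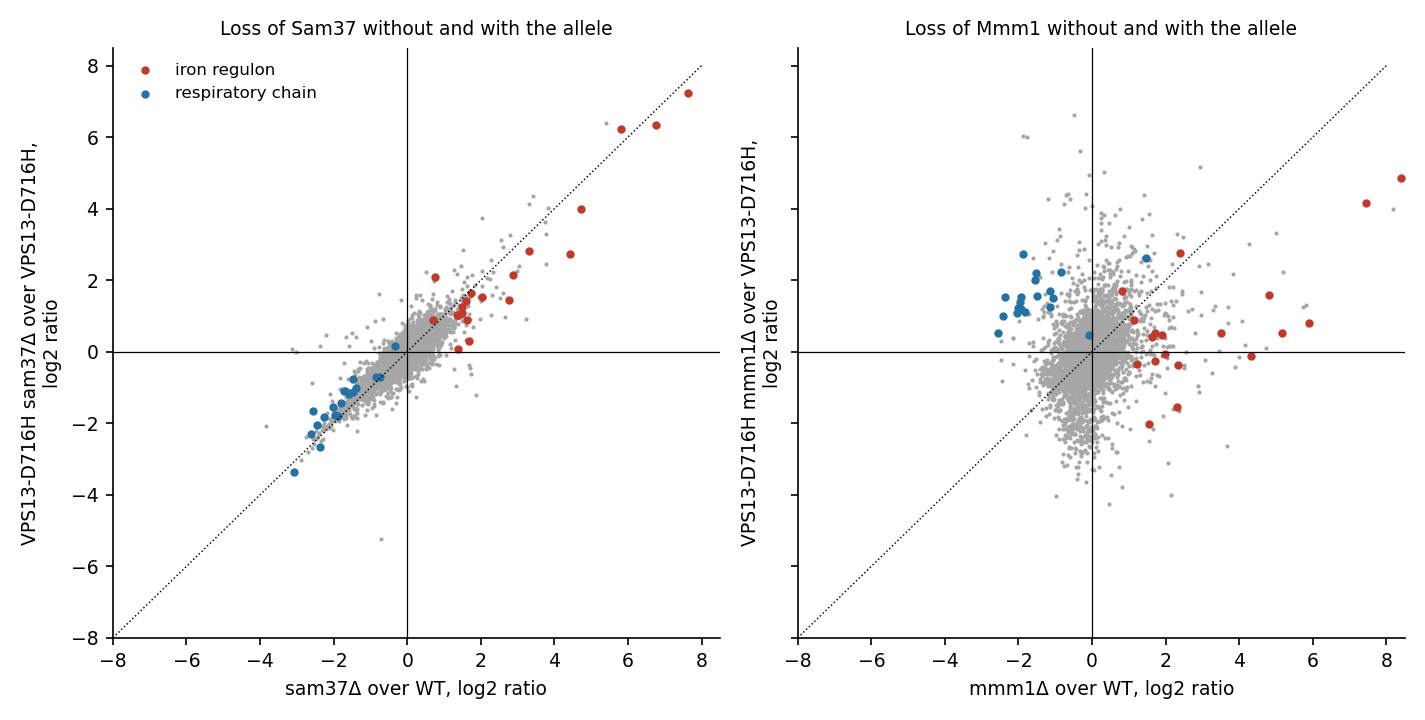
Log2 ratio of (FPKM + 1) of each long unshared gene whose FPKM averaged 20 or more, for loss of Sam37 (left) or Mmm1 (right), without the allele (x) and with it (y); the dotted line marks equal ratios. Iron regulon genes (red) and respiratory chain genes (blue) follow the line for Sam37, where r was 0.87, and leave it for Mmm1, where r was 0.29.

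The allele's own ratios showed little likeness between backgrounds. Over 3667 long unshared genes, the ratios in the sam37Δ pair and the WT pair had a Pearson's r of 0.02. The standard deviation over these genes was only 0.16 in the sam37Δ pair and 0.35 in the WT pair, so there was little spread to compare. Over all 6222 genes Pearson's r was -1.2e-05. Over 3742 long unshared genes, those of the sam37Δ pair and the mmm1Δ pair had -0.22, and over all 6296 genes -0.03.

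The 3 pairs together allow a test of the allele in which the background is a block. Limma was run on log2(FPKM + 1) over 6 libraries. For an effect common to the 3 backgrounds, none of 6280 genes (0%) passed a two-sided Benjamini-Hochberg adjusted p of 0.05. In that limma fit 53 had an unadjusted p under 0.05, and the smallest adjusted p was 0.085. Its spread is the difference of the allele's effect between backgrounds, with 2 residual degrees of freedom, so it does not show that a common effect is absent. For a difference of the allele's effect in sam37Δ from that in the other 2 backgrounds, none passed either (0%), 54 had an unadjusted p under 0.05, and the smallest adjusted p was 1.00. That test takes its spread from the difference between the WT and mmm1Δ pairs, with 1 residual degree of freedom and a median SE of 0.59 on the log2 scale, so it had little reach. The corresponding fit for mmm1Δ, added after the data had been seen, called 1 gene (0.0159%), the 75 nt gene YDL247W-A, and 2054 genes had an unadjusted p under 0.05. YDL247W-A was listed at 0 in the WT pair, at 734 and 756 FPKM in the sam37Δ pair and at 1030 and 0 in the mmm1Δ pair.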

How the data were processed

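Messenger RNA was sequenced in 12 libraries, and 1 of 3 tables, with 7 libraries, was used, because the tables were normalized separately. The authors deposited FPKM values per gene. TopHat2 2.0.8, Cuffdiff 2.0.2 and sacCer3 are named per the submitters' processing notes, without roles or settings, and libraries were made with TruSeq or KAPA stranded kits, per the labels' protocols. Depth is unknown, so no counting error is given, and whether strand was used to separate overlapping genes is not stated. Of 6660 genes, 5986 matched R64 by identifier; coordinates and sequences are from RefSeq R64.

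Ratios are log2 of (FPKM + 1), which understates changes of low genes; genes needed a mean FPKM of 5, and 2-fold was counted. The R package limma (version 3.58.1, under R 4.3.3) was run two-sided with a trended prior and the background as a block. It was first tried on simulated data with the same spread for every gene, whereas the real ratios spread more at low FPKM. That trial does not show how the fits perform on these data. The named genes were the 15 highest and 15 lowest ratios among named genes 300 nt or longer, with no other gene listed at the locus and a mean FPKM of 20, the ends of each list, the genes checking the labels and the smallest limma p. Others are examples from the lists, PAU and COS families included, chosen after their values were seen. The comparison and lists were chosen with earlier results of these data known. Alternatives were other pseudocounts (0.1 and 5), filters, centring, trend removal, a 1.5-fold limit and left-out backgrounds.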

Additional observations from a re-analysis of the deposited data

Results flagged for a closer look

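The 9 genes listed here were past 2-fold in one direction in the sam37Δ pair and past 2-fold in the other in the mmm1Δ pair. Each is 300 nt or longer with a locus to itself. Of 4790 such genes in the sam37Δ pair, 9 were past 2-fold higher and 11 lower (0.42%). Of 4815 in the mmm1Δ pair, 363 were higher and 557 lower (19.1%). With 1 library on each side the difference was not tested. Higher with the allele in sam37Δ and lower with it in mmm1Δ were PAU14 (log2 ratio 1.57 in sam37Δ, -3.80 in mmm1Δ), PBI1 (1.43 and -4.52), PAU1 (1.23 and -2.26), YKR104W (1.11 and -1.89), PAU8 (1.06 and -5.41) and PAU5 (1.02 and -5.21). Lower in sam37Δ and higher in mmm1Δ were YER121W (-1.30 and 1.82), SRX1 (-1.12 and 1.89) and HSP12 (-1.02 and 1.53). PAU genes are near-identical copies, and PAU8, PAU1, PAU14, YKR104W, YER121W and SRX1 were under 20 FPKM on average in the sam37Δ pair.

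In the limma fit of the allele's effect in mmm1Δ against the other 2 backgrounds, 1 gene passed, YDL247W-A, with a log2 estimate of -10.03 and an adjusted p of 0.047; 2054 genes had an unadjusted p under 0.05. The fit has 1 library an arm and 1 residual degree of freedom, so its spread comes from the difference between the WT and sam37Δ pairs and from the other genes. The gene is 75 nt long and listed at 0 in the VPS13-D716H mmm1Δ library. The number of genes passing fell with no filter on low values and with no trend in the prior. It rose with either other pseudocount, with a mean FPKM of at least 20 and with libraries centred. The number thus hung on the setting, and this call does not establish a difference.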

How the results depend on the processing

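The count of genes higher in the sam37Δ pair was 73 and that of genes lower 63. With no filter on low values they were 111 and 103, with a mean FPKM of at least 20 they were 38 and 25, for genes 300 nt or longer with a locus to themselves 9 and 11, and at 1.5-fold 153 and 144. With a pseudocount of 5 there were 40 lower. Other pseudocounts, centring and removal of the trend with abundance kept both counts within 1.5 times. None of the 307 recomputed medians of 44 lists moved by 1.5-fold or more; the largest move was 0.37, for the alpha-type mating genes, of which 1 of 3 is left at a mean FPKM of at least 20. Of 144 recomputed ratios of 36 named genes none changed sign, and 8 fell short of 2-fold, all with a pseudocount of 5.

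The limma count for the allele over the 3 backgrounds was 0 throughout, also without any background in turn, except for 2 with no background block. For the difference in sam37Δ it was 0 under every setting run. For mmm1Δ, with settings added after the data had been seen, it was 1, and 11 with a pseudocount of 0.1, 487 with a pseudocount of 5, 0 with no filter, 474 with a mean FPKM of at least 20, 332 with libraries centred and 0 with no trend; the cause was not tested. Libraries were paired by background, as a block, in the limma fit over the 3 backgrounds. With the replicate number as the block, no paired analysis was possible because each group has 1 library in the table and the groups compared share no more than 1 number.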

Other observations

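Genes of sulfate assimilation were near equal in the sam37Δ pair and not in the mmm1Δ pair. Of 26 genes of sulfate assimilation and methionine synthesis, 19 had a ratio above 0, with a median log2 ratio of 0.08. Within 1.5-fold lay 25 of them, beside 95.2% of all genes tested. The mmm1Δ pair had a median of 1.76, with 19 genes at least 2-fold higher, beside 9.43% of all genes. MET6, methionine synthase, was at 76.2 and 88.4 FPKM in the sam37Δ pair, 255 and 194 in the WT pair and 66.8 and 561 in the mmm1Δ pair. The methionine permease gene MUP1 was at 35.5 and 38.6, 128 and 103, and 51.6 and 320 FPKM. The activator gene MET28 had the highest ratio of the list, at 7.44 and 11.95 FPKM (0.62), both low levels at a locus shared with another gene.

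Of 12 peroxisomal and beta-oxidation genes, 4 were above 0 and all lay within 1.5-fold, beside 95.2% of all genes tested. Their median was -0.20, with ratios from DCI1 (19.1 and 14.7 FPKM, -0.36) to SPS19 (16.1 and 17.9 FPKM, 0.15). Of 15 genes of a-type mating, 12 were above 0 and all lay within 1.5-fold, with a median of 0.09; AGA2, an a-agglutinin subunit, was at 856 and 1004 FPKM, against 2065 in WT. All 10 zinc regulon genes and all 24 ergosterol synthesis genes lay within 1.5-fold, with medians of 0.02 and -0.02.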
